A study of Mus musculus with 12 samples.

Results

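Sorted lung endothelial cells (ECs), the cells that line blood vessels, were compared between metastatic lungs at week 3 and healthy lungs. The comparison holds 3 arrays of mice 3 weeks after injection of cancer cells and 3 arrays of healthy mice, which are 6 of the 12 arrays of the series (the other arrays are 3 each of weeks 1 and 2). The mice were NSG, an immunodeficient strain that lacks mature lymphocytes and natural killer cells. Those of week 3 were 6 to 8 weeks old when they were injected through the tail vein with MDA-MB-231-LM2, a human breast cancer line selected for growth in the lung, and the healthy mice were age-matched and carried no cancer cells. ECs were sorted from whole digested lungs as cells with CD31 and without CD45, CD11b, EpCAM, CD140a, CD140b or the GFP of the cancer cells, so each sample held the ECs of the whole lung and not those of the metastatic nodules alone. Whether an array holds 1 mouse or a pool is not given in the sources used here, and the labels call the 3 samples of a group biological replicates. RNA was measured on Affymetrix GeneChip mouse genome arrays, whose probe sets report 1 signal each. All levels below are log2 signals, so a difference of 1 is a doubling, and the log2 fold change is week 3 minus healthy, given ± its standard error. Each gene was read from 1 probe set, the one of a single gene symbol that was highest on average in all 12 arrays, and tested with limma, with Benjamini-Hochberg adjustment over all 45037 probe sets, and a gene is said to have risen or fallen where its adjusted p was below 0.05.

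Quiescent lung ECs form the thin capillary wall across which gas is exchanged, hold their neighbors through junctions and carry receptors for vasoactive and immune signals. In growing metastases, ECs are known to divide, sprout and respond to inflammatory signals, and fixed lists of genes of division, interferon response, inflammation and secreted proteins are therefore left aside here. A secreted product outside those lists is kept. The counts of a gene or marker list below include any of its members that are also in the lists left aside. The text turns to the other receptors, transporters, enzymes, cytoskeletal proteins and transcription factors of these cells.

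Of 18193 genes, 433 rose at week 3 (2.38% of all genes) and 479 fell (2.63%), and 17281 did not pass the test. The lists of proliferation, interferon, inflammation and secreted-protein genes that are left aside, some of which the study chose on these arrays, hold 178 of the risen genes and 1 of the fallen ones, which leaves 255 risen and 478 fallen genes. The 3 arrays of week 3 did not overlap the 3 healthy arrays in any of the 912 genes that passed. The test favors genes with such a gap, so this adds no support to the calls, and the share over all genes was not counted. The calls depended on every array. Without healthy replicate 1, 2 or 3, 189, 154 and 192 genes rose and 197, 176 and 270 fell, and without week 3 replicate 1, 2 or 3, 212, 233 and 178 rose and 269, 270 and 220 fell. Of the 160 genes named by size or as called members of a list, 79 kept their call in all 6 fits with 1 array left out. Another 3 kept it in 5 of these fits and 78 in 4 or fewer. Of the same 160 genes, 100 have further probe sets. Another one was called in the same direction for 55 of them and in the opposite direction for 0. Arrays of 1 group correlated by 0.978 to 0.982 over all probe sets, and arrays of different groups by 0.961 to 0.970.

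**Figure D1:**
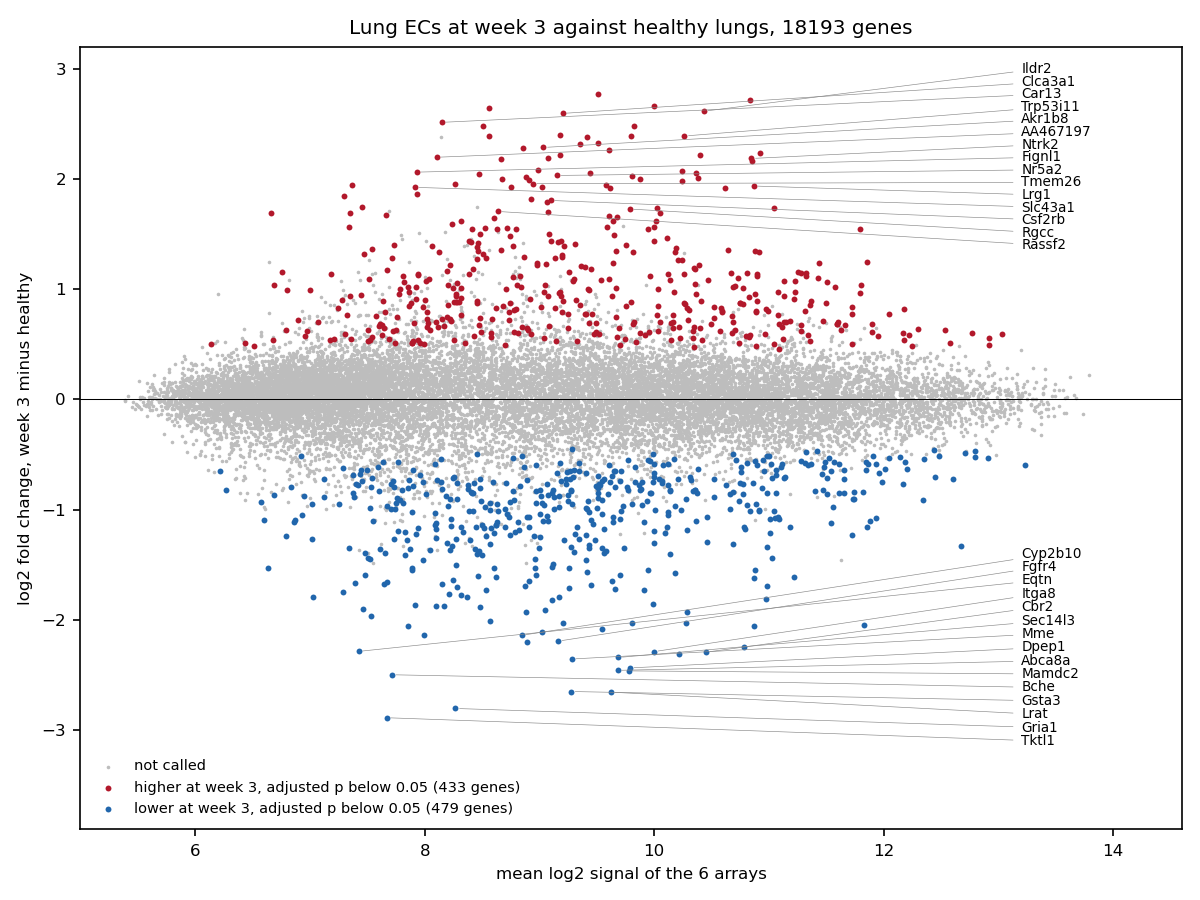
Log2 fold change (vertical axis, week 3 minus healthy) against the mean log2 signal of the 6 arrays (horizontal axis). Each point is 1 of 18193 genes, in red where it was higher and in blue where it was lower at week 3 at an adjusted p below 0.05, and the 15 largest rises and 15 largest falls described in the text are named.

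The sorted fractions were endothelial in both groups, with a higher signal of transcripts of other lung cells in the healthy ones. Pecam1, which encodes CD31, had signals of 13.50, 13.50 and 13.46 at week 3, against 13.40, 13.46 and 13.50 in healthy lungs. Of 25 pan-endothelial markers, 1 rose and none fell (5 higher and 0 lower at an unadjusted p below 0.05 in limma). Their summed linear signal was 194000 to 200000 at week 3 and 192000 to 196000 in healthy lungs. In contrast, falls were found in 7 of 18 markers known from fibroblasts and in 4 of 16 known from pericytes and smooth muscle. In epithelium, 6 of 10 alveolar type 1 markers, 5 of 10 alveolar type 2 markers and 3 of 13 airway markers fell. With 1 array left out, 5 to 8 fibroblast, 1 or 2 mural, 2 to 5 type 1, 1 to 6 type 2 and 0 or 1 airway markers fell. None of these 67 markers rose (1 was higher at an unadjusted p below 0.05 in limma). The summed signal of the fibroblast list was 49200 to 54800 at week 3 and 69700 to 71700 in healthy lungs. For pericytes and smooth muscle it was 9720 to 11100 at week 3 and 14800 to 16400 in healthy lungs. Alveolar type 1 markers summed to 18400 to 22300 at week 3 and 29500 to 31500 in healthy lungs, and type 2 markers to 19700 to 25300 at week 3 and 33300 to 35400 in healthy lungs. Airway markers summed to 5600 to 8210 at week 3 and 9500 to 22000 in healthy lungs. Pdgfra, which encodes the CD140a that the sort excluded, had 9.92, 9.95 and 9.12 at week 3, against 11.93, 11.99 and 11.82 in healthy lungs. Pdgfra fell by 2.25 ± 0.23 on the log2 scale (adjusted p = 0.00462). In such bulk samples, fewer cells of a type and less RNA per cell cannot be told apart. The part of other lung cells in the falls described below was not tested. Among leukocyte markers, C1qa, C1qb and Ms4a7 of 15 macrophage genes rose and Cd68 fell, Mcpt8 and Ms4a2 of 10 mast cell and basophil genes rose, and none of 9 neutrophil genes was called in limma (2 were higher at an unadjusted p below 0.05). With 1 array left out, 0 to 3 macrophage and 0 to 2 mast cell and basophil genes rose. Of 12 pan-leukocyte markers 1 rose, with a summed signal of 7930 to 8660 at week 3 and 6210 to 7930 in healthy lungs, and Ptprc, which encodes CD45, had 9.15, 9.44 and 9.13 at week 3, against 9.46, 8.86 and 8.21 in healthy lungs. Ptprc had a log2 fold change of 0.39 ± 0.29 (adjusted p = 0.503). Among 24 transcripts that tissue dissociation is known to induce, 7 fell and none rose (0 higher and 14 lower at an unadjusted p below 0.05 in limma). With 1 array left out, 2 to 5 fell. Their summed signal was 98800 to 107000 at week 3 and 122000 to 124000 in healthy lungs. As a measure of RNA degradation, the 3′ control probe set of Gapdh exceeded its 5′ counterpart by 0.31 ± 0.08 at week 3 and 0.52 ± 0.16 in healthy lungs (SD, n = 3 each, log2, exact permutation test, two-sided, p = 0.2, where the smallest possible p is 0.1).

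**Figure D2:**
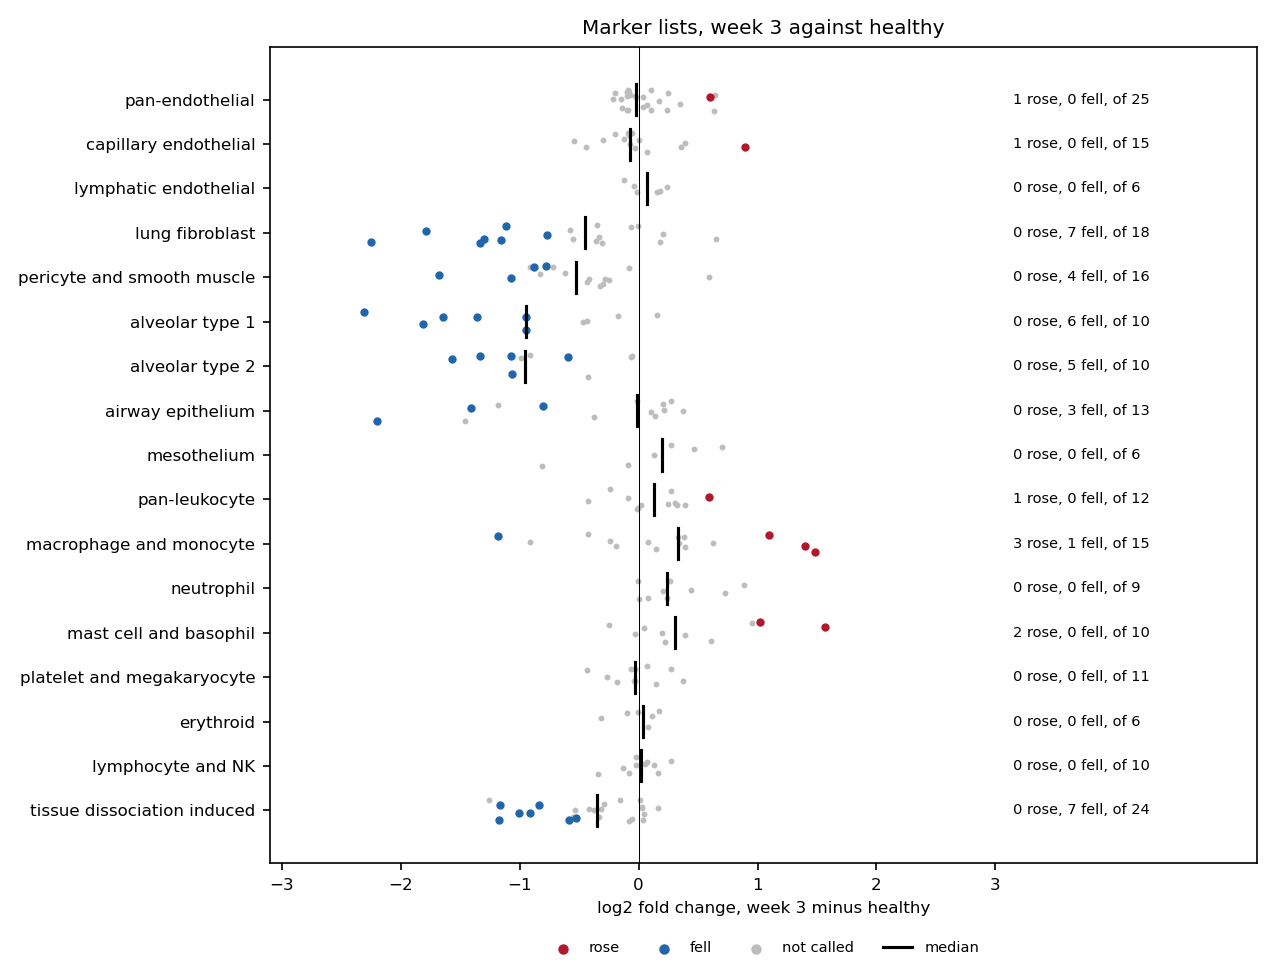
Log2 fold change (horizontal axis, week 3 minus healthy) of the members of 17 marker lists (vertical axis). Each point is 1 gene, red where it rose, blue where it fell and grey where it was not called, and black bars are list medians, which lie at -0.02 for pan-endothelial markers, -0.45 for fibroblasts and -0.95 for both alveolar cell types.

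The largest rises outside the lists left aside were in a mixed group of surface proteins, enzymes and regulators. Ildr2, an immunoglobulin-like protein of the angulin family that sits at contacts between cells, rose most. Its signals were 11.73, 11.68 and 11.82 at week 3, against 8.94, 9.30 and 9.15 in healthy lungs, so all week 3 arrays lay more than 2 log2 units above all healthy arrays (6.14-fold, log2 fold change of 2.62 ± 0.13, adjusted p = 0.000471). The same pattern was found for Clca3a1, which encodes a regulator of chloride channels, with signals of 10.44, 10.46 and 10.60 at week 3, against 8.05, 7.82 and 7.84 in healthy lungs. Clca3a1 rose by 2.60 ± 0.11 on the log2 scale, or 6.05-fold (adjusted p = 0.000471). Car13, a cytosolic carbonic anhydrase, was lowest in healthy replicate 1, with 8.98, 9.67 and 9.57 at week 3, against 6.25, 7.23 and 7.19 in healthy lungs. Car13 rose by 2.52 ± 0.30 on the log2 scale, or 5.72-fold (adjusted p = 0.00794). Trp53i11, a gene induced by p53, had 11.58, 11.28 and 11.52 at week 3, against 9.18, 9.13 and 8.89 in healthy lungs. Trp53i11 rose by 2.39 ± 0.13 on the log2 scale, or 5.25-fold (adjusted p = 0.000768). The healthy arrays of this gene lay within 0.3 of each other, as did those of Akr1b8, an aldo-keto reductase that detoxifies aldehydes, with 9.99, 10.01 and 10.54 at week 3, against 7.85, 8.05 and 7.76 in healthy lungs. Akr1b8 rose by 2.29 ± 0.18 on the log2 scale, or 4.88-fold (adjusted p = 0.00184). AA467197 had 9.21, 9.04 and 9.37 at week 3, against 7.15, 7.29 and 6.57 in healthy lungs. AA467197 rose by 2.20 ± 0.20 on the log2 scale (adjusted p = 0.00319).

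Of the remaining large rises, 3 were in receptors or regulators of transcription. Ntrk2 encodes TrkB, the receptor of the neurotrophin BDNF, and had 11.96, 11.80 and 12.06 at week 3, against 10.18, 9.56 and 9.53 in healthy lungs. Ntrk2 rose by 2.19 ± 0.19 on the log2 scale, or 4.56-fold (adjusted p = 0.00284). Of 7 other probe sets of Ntrk2, 2 also rose, and the log2 fold changes of the 7 lay between 0.15 and 2.42. Bdnf itself had a log2 fold change of -0.43 and the related receptor gene Ntrk3 one of -0.68, and neither passed the test (adjusted p = 0.117 and 0.176). Nr5a2, which encodes the nuclear receptor LRH-1, had 10.15, 10.28 and 10.08 at week 3, against 8.25, 7.94 and 8.23 in healthy lungs (4.09-fold, log2 fold change of 2.03 ± 0.13, adjusted p = 0.00103), and its 3 other probe sets rose as well. Csf2rb, the shared beta subunit of the receptors for interleukin 3, interleukin 5 and GM-CSF, had 10.18, 9.89 and 9.94 at week 3, against 8.46, 8.14 and 7.99 in healthy lungs. Csf2rb rose by 1.81 ± 0.16 on the log2 scale, or 3.5-fold (adjusted p = 0.00265). Csf2rb2, a near-identical neighbor gene that may share signal with it and was named after its value was seen, rose by 1.55 (adjusted p = 0.00286). Leukocytes, mast cells and basophils are known to carry this subunit. Beside it, the summed signal of the mast cell and basophil list was 10100 to 11200 at week 3 and 9870 to 9900 in healthy lungs, and Ms4a2 had 7.90, 8.70 and 7.78 at week 3, against 6.87, 6.21 and 6.60 in healthy lungs. Kit, which is also in the capillary endothelial list, counts towards the summed signal, so that sum does not measure mast cells and basophils alone. The part of leukocytes, mast cells and basophils in the rise of Csf2rb was not tested.

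Lrg1, a secreted glycoprotein that modulates TGF-β signaling in ECs, reached 11.88, 11.86 and 11.77 at week 3, against 9.71, 10.31 and 9.67 in healthy lungs, with healthy replicate 2 above the other healthy arrays (log2 fold change of 1.94 ± 0.18, adjusted p = 0.00348). Rgcc, a regulator of the cell cycle that responds to complement, had 10.95, 10.28 and 10.73 at week 3, against 8.93, 8.99 and 8.86 in healthy lungs. Rgcc rose by 1.73 ± 0.18 on the log2 scale (adjusted p = 0.00482). For Rassf2, which encodes a protein that binds Ras, signals were 9.59, 9.18 and 9.70 at week 3, against 8.04, 7.83 and 7.48 in healthy lungs. Rassf2 rose by 1.71 ± 0.19 on the log2 scale (adjusted p = 0.00646). Tmem26, a transmembrane protein gene, and Fignl1, an ATPase of DNA repair, had log2 fold changes of 1.96 and 2.06 (adjusted p = 0.0039 and 0.00803). Slc43a1, a transporter of neutral amino acids, was the least even of the 15, with 8.36, 9.17 and 9.10 at week 3, against 7.45, 6.65 and 6.75 in healthy lungs. Slc43a1 rose by 1.93 ± 0.28 on the log2 scale (adjusted p = 0.0158). Its call was lost without healthy replicate 2 or 3 or week 3 replicate 3, with an adjusted p of up to 0.0641, while the calls of the other 14 genes held with any 1 array left out.

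**Figure D3:**
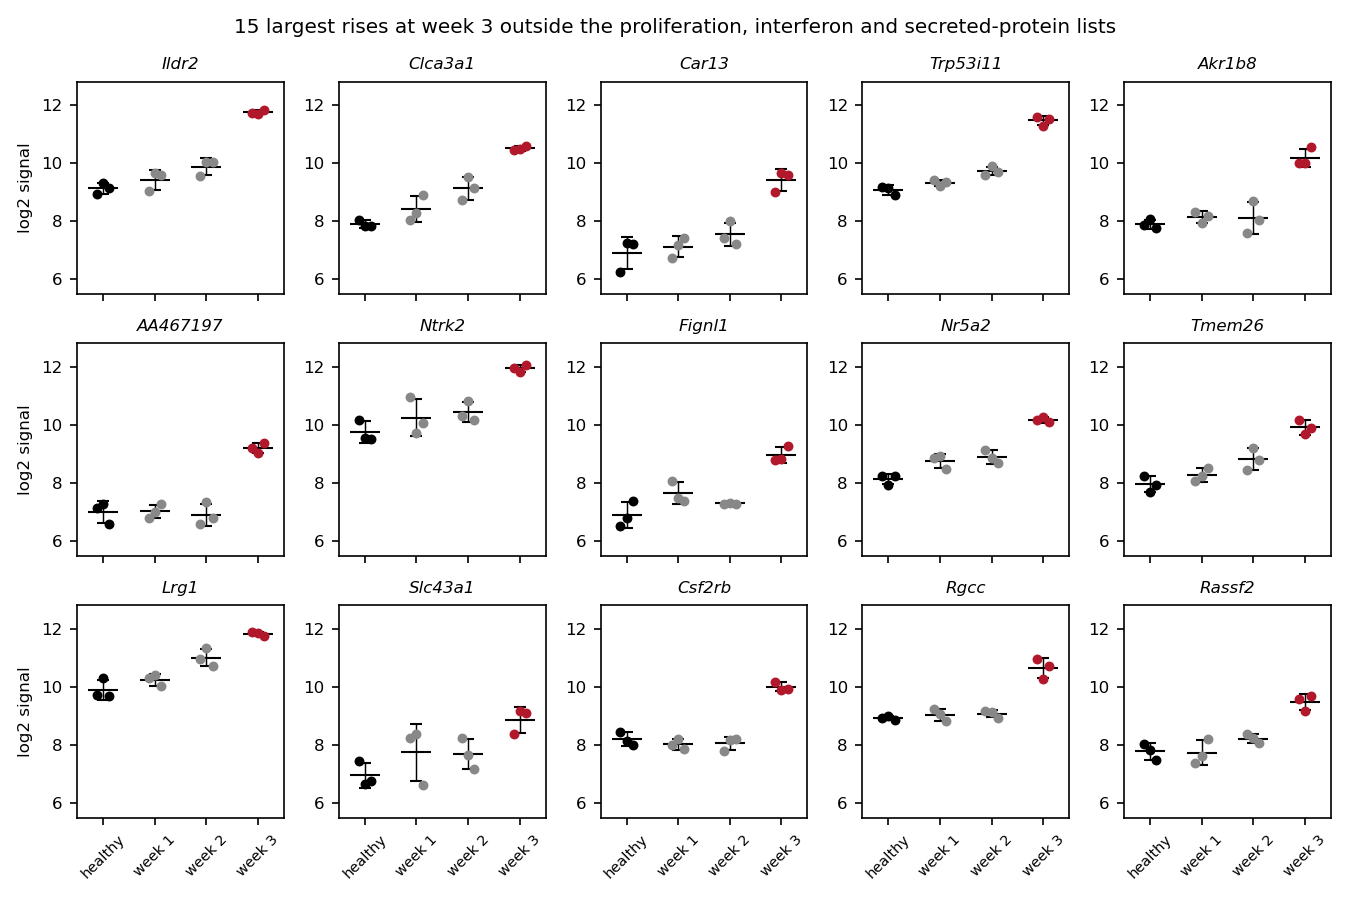
Log2 signal (vertical axis) of the 15 largest rises at week 3 outside the lists left aside, in ECs of healthy lungs and of lungs at weeks 1, 2 and 3 (horizontal axis). Points are arrays and bars the mean ± SD (n = 3), and for AA467197, Csf2rb, Akr1b8 and Rgcc the arrays of weeks 1 and 2 lie near the healthy arrays.

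The same genes were closer to the healthy level at the earlier weeks. Against healthy lungs, the log2 fold changes of the 15 genes lay between -0.17 and 0.79 at week 1 and between -0.14 and 1.23 at week 2, and 12 of the 15 also exceeded week 2 at week 3 (limma, adjusted p below 0.05, the background being 1.35% of all genes higher and 0.748% lower than at week 2). Since the 15 were chosen as extremes of the same week 3 arrays, the choice bears on this count. Csf2rb had log2 fold changes of -0.17 at week 1 and -0.14 at week 2, and was 1.95 higher at week 3 than at week 2 (adjusted p = 0.0107). The same was seen for AA467197 (0.02 at week 1 and -0.10 at week 2), Rgcc (0.11 at week 1 and 0.16 at week 2) and Akr1b8 (0.25 at week 1 and 0.21 at week 2), which exceeded week 2 by 2.30, 1.57 and 2.07 (adjusted p = 0.0124, 0.0193 and 0.0266). Clca3a1 and Lrg1 had reached 1.23 and 1.11 at week 2, and Lrg1, Tmem26 and Slc43a1 did not pass the test against week 2 (adjusted p = 0.0578, 0.0608 and 0.122). The count against week 2, 246 genes higher and 136 lower, fell to 0 in both directions without week 2 replicate 1 or 3, to 37 and 19 without week 2 replicate 2, and to 34 and 13, 94 and 43, and 46 and 13 without week 3 replicate 1, 2 or 3. Each call against week 2 given here was therefore lost when week 2 replicate 1 or 3 was left out. The comparisons share arrays, so their values are given side by side only.

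Genes that shape the cytoskeleton moved in both directions. Tiam1, an exchange factor that activates Rac, had 10.58, 10.16 and 10.58 at week 3, against 8.86, 8.34 and 9.15 in healthy lungs (log2 fold change of 1.66 ± 0.23, adjusted p = 0.0116), but its 2 other probe sets had log2 fold changes between -0.11 and 0.13 and did not pass. The GTPase genes Rac1 and Cdc42 had log2 fold changes of 0.01 and 0.07 (adjusted p = 0.978 and 0.746). Among 111 genes of myosins, actins and actin binding, 3 rose and 7 fell (2.7% and 6.31%), and with 1 array left out 1 to 3 rose and 2 or 3 fell. Fscn1, which bundles actin in filopodia, was tight within both groups, with 12.53, 12.40 and 12.52 at week 3, against 11.25, 11.21 and 11.24 in healthy lungs. Fscn1 rose by 1.25 ± 0.10 on the log2 scale (adjusted p = 0.00211). Synpo, an actin-associated protein gene, had 10.74, 10.91 and 10.88 at week 3, against 9.55, 9.68 and 8.90 in healthy lungs (log2 fold change of 1.47 ± 0.21, adjusted p = 0.0134), and its call was lost without week 3 replicate 3 (adjusted p = 0.052). Tns4, a tensin of focal adhesions, fell, with 6.0, 6.21 and 6.19 at week 3, against 8.06, 7.48 and 8.23 in healthy lungs. Tns4 fell by 1.79 ± 0.20 on the log2 scale (adjusted p = 0.00626), and most of its signals lay below the median of all values (8.13). Tubb6, a beta-tubulin, had 12.05, 11.97 and 12.12 at week 3, against 10.80, 11.14 and 10.98 in healthy lungs (log2 fold change of 1.07 ± 0.12, adjusted p = 0.00672), and weeks 1 and 2 did not differ from healthy lungs by more than 0.1 in mean level (-0.08 at week 1 and 0.00 at week 2).

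Among surface receptors, the adhesion G protein-coupled receptors had members that rose and a member that fell. These receptors carry long extracellular parts that bind matrix or neighboring cells. Of 24 measured, 2 rose (8.33%) and 1 fell (4.17%), and these counts were the same with any 1 array left out. Adgrg1 had 11.93, 11.94 and 11.82 at week 3, against 10.58, 10.90 and 10.77 in healthy lungs (log2 fold change of 1.15 ± 0.12, adjusted p = 0.00519), and Adgrg3 had 10.37, 10.50 and 10.51 at week 3, against 9.67, 9.55 and 9.61 in healthy lungs. Adgrg3 rose by 0.85 ± 0.10 on the log2 scale (adjusted p = 0.00805). Adgrg6 went the other way, with 9.44, 9.51 and 9.85 at week 3, against 10.71, 10.67 and 10.57 in healthy lungs (log2 fold change of -1.05 ± 0.14, adjusted p = 0.0102), and was lower than at week 2 as well (log2 fold change of -0.92, adjusted p = 0.0263). Adgrf5, Adgre5 and Adgrl4, members that ECs or leukocytes are known to carry, had log2 fold changes of -0.15, -0.28 and 0.00 and did not pass (adjusted p = 0.46, 0.165 and 0.988), although Adgre5 passed with a trended and robust variance (adjusted p = 0.00985).

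Other receptor families ranged from calls near the background share to higher shares. Of 32 genes of the prostanoid and leukotriene system 1 rose and 1 fell (3.12% each). The rise was in Ptger3, a receptor of prostaglandin E2, whose signals were below the median of all values (8.13) in both groups, with 7.56, 7.40 and 7.54 at week 3, against 6.46, 6.43 and 6.62 in healthy lungs. Ptger3 rose by 1.0 ± 0.11 on the log2 scale (adjusted p = 0.00609). Its other probe set had a log2 fold change of -0.03. The fall was in Ptgfr, a receptor of prostaglandin F2α, with 6.75, 6.93 and 6.65 at week 3, against 7.66, 7.62 and 7.90 in healthy lungs. Ptgfr fell by 0.95 ± 0.13 on the log2 scale (adjusted p = 0.0117), and its signals were also below the median of all values in both groups. Of 90 receptors and ligands of vasoactive peptides, amines and purines, none rose and 2 fell (2.22%), with 11 higher and 12 lower at an unadjusted p below 0.05 in limma. These were Vipr2, a receptor of vasoactive intestinal peptide (log2 fold change of -2.03 ± 0.32, adjusted p = 0.019), and Agtr1a, a receptor of angiotensin II (log2 fold change of -1.27 ± 0.19, adjusted p = 0.0162), and Vipr2 lost its call without healthy replicate 1 or 2 or week 3 replicate 1 or 3 and Agtr1a without healthy replicate 2 or week 3 replicate 2 or 3 (adjusted p up to 0.072 and 0.0606). Of 21 Eph receptors and ephrins, none rose and 2 fell (9.52%, with 0 higher and 4 lower at an unadjusted p below 0.05 in limma), but at most 1 fell with 1 array left out. Of 50 interleukin receptors and their SOCS inhibitors 1 rose and 1 fell (2% each). Among 50 adhesion receptors of immunoglobulin type, 4 rose (8%) and 3 fell (6%), and with 1 array left out the count of rises was 1 or 2 and that of falls 1 or 2. Next to Ildr2, the largest rise was in Chl1, a cell adhesion molecule of neurons, with 7.42, 7.21 and 7.38 at week 3, against 5.76, 6.73 and 6.06 in healthy lungs. Chl1 rose by 1.16 ± 0.24 on the log2 scale (adjusted p = 0.0438), with signals below the median of all values in both groups. Its healthy replicate 2 stood well above the other healthy arrays, and its call was kept only without that array. None of its 3 other probe sets passed (log2 fold changes of -0.04 to 0.26). F11r, which encodes the junctional adhesion molecule JAM-A, had the more even signals of 12, 11.88 and 11.93 at week 3, against 11.43, 11.24 and 11.27 in healthy lungs (log2 fold change of 0.63 ± 0.11, adjusted p = 0.0256), but lost its call without any 1 array (adjusted p up to 0.0875). Alcam, an adhesion molecule also found on epithelium, fell, with 9.34, 9.07 and 8.74 at week 3, against 10.89, 10.86 and 10.60 in healthy lungs. Alcam fell by 1.73 ± 0.17 on the log2 scale (adjusted p = 0.00468). In the same arrays 7 of 18 fibroblast, 4 of 16 mural and 5 of 10 alveolar type 2 markers fell. The part of such cells in the falls of these receptors was not tested.

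Among transporters, membrane enzymes and channels, rises of about 1 log2 unit were found. Slc12a2, a sodium, potassium and chloride cotransporter that sets cell volume, had 10.62, 10.63 and 10.74 at week 3, against 9.78, 9.71 and 9.57 in healthy lungs. Slc12a2 rose by 0.98 ± 0.11 on the log2 scale (adjusted p = 0.00625). Its log2 fold changes had been -0.04 at week 1 and -0.05 at week 2. Fxyd5, which regulates the sodium pump, had 10.91, 10.72 and 10.94 at week 3, against 9.86, 10.11 and 9.91 in healthy lungs. Fxyd5 rose by 0.90 ± 0.12 on the log2 scale (adjusted p = 0.0113). Of 48 ADAM and ADAMTS proteases 3 rose (6.25%, 1 of them in the lists left aside) and 2 fell (4.17%), and 2 rose and 2 fell with any 1 array left out. Adam12, a membrane metalloproteinase, had 11.29, 11.31 and 11.43 at week 3, against 10.32, 10.41 and 10.61 in healthy lungs (log2 fold change of 0.89 ± 0.12, adjusted p = 0.0107) and was 1.10 higher than at week 2 (adjusted p = 0.0269), while the secreted Adamts15 had 7.99, 8.34 and 8.06 at week 3, against 9.35, 9.60 and 9.14 in healthy lungs. Adamts15 fell by 1.23 ± 0.16 on the log2 scale (adjusted p = 0.00982). Gja1, which encodes connexin 43 of gap junctions, had 11.82, 11.65 and 11.67 at week 3, against 11.11, 10.97 and 10.65 in healthy lungs (log2 fold change of 0.81 ± 0.14, adjusted p = 0.029), and 4 of its 5 other probe sets rose too, but its call held only without healthy replicate 1 (adjusted p up to 0.0852). The connexins of arterial ECs, Gja4 and Gja5, had log2 fold changes of -0.21 and 0.05 (adjusted p = 0.372 and 0.898). Of 103 transporters of zinc, iron, copper and exchanged ions, 2 rose (1.94%) and 6 fell (5.83%), and of 90 transporters of glucose, monocarboxylates and organic anions, none rose and 7 fell (7.78%, with 9 higher and 16 lower at an unadjusted p below 0.05 in limma). With 1 array left out, the falls in the first of these lists numbered 2 to 4 and in the second 2 to 4.

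Rises were also found in serine and one-carbon metabolism, which supplies carbon units for nucleotides. Of 32 genes of the list, which also holds the stress response to a lack of amino acids, 5 rose (15.6%) and 2 fell (6.25%), with a median log2 fold change of 0.12, against 0.03 over all genes. Mthfd1l, a mitochondrial enzyme of the folate cycle, was the steadiest, with 9.57, 9.58 and 9.39 at week 3, against 8.02, 8.45 and 8.18 in healthy lungs. Mthfd1l rose by 1.30 ± 0.14 on the log2 scale (adjusted p = 0.00567). Psat1, which makes phosphoserine, was highest in week 3 replicate 3, with 9.31, 8.95 and 10.14 at week 3, against 8.16, 8.15 and 7.91 in healthy lungs (log2 fold change of 1.39 ± 0.28, adjusted p = 0.0432), and its call was lost without any 1 healthy array or week 3 replicate 1 (adjusted p up to 0.119). Mthfd2, Aldh18a1 and Trib3 had log2 fold changes of 0.92, 0.91 and 0.71 (adjusted p = 0.0385, 0.0272 and 0.0454), and with 1 array left out the adjusted p rose to 0.123, 0.0855 and 0.117. The first enzyme of serine synthesis, Phgdh, and the last, Psph, had log2 fold changes of 0.15 and -0.10, and Shmt2, which takes the carbon unit from serine, one of 0.22 (adjusted p = 0.556, 0.78 and 0.487). Atf4, the factor known to drive many of these genes in stressed cells, had 11.91, 12.05 and 12.07 at week 3, against 12.15, 12.26 and 12.35 in healthy lungs. Atf4 had a log2 fold change of -0.25 ± 0.11 (adjusted p = 0.266). With each array left out in turn, 1 to 3 of the list rose and 1 or 2 fell. Rises in this list stood beside the rise of proliferation genes in the same arrays, whose part was not tested.

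Few calls were found in the lists of oxidative phosphorylation and the citrate cycle. Of 82 subunits of oxidative phosphorylation 1 rose and 1 fell (1.22% each), and of 33 genes of the citrate cycle and mitochondrial carriers none passed in either direction in limma (1 higher and 2 lower at an unadjusted p below 0.05). Within 24 genes of the pentose phosphate, hexosamine and polyol pathways, Akr1b8 rose and Tktl1 and H6pd fell, the call of H6pd being lost without any 1 array (adjusted p of 0.0333 with all arrays and up to 0.106 without 1), while Tkt and Taldo1, which carry the bulk of the sugar exchange, had log2 fold changes of 0.12 and 0.02 (adjusted p = 0.586 and 0.945). Tktl1, a transketolase-like gene, was the largest fall outside the marker lists, with 6.48, 5.98 and 6.21 at week 3, against 9.16, 8.86 and 9.32 in healthy lungs. Tktl1 fell by 2.89 ± 0.17 on the log2 scale, or 7.41-fold (adjusted p = 0.000877). It had log2 fold changes of -1.87 at week 1 and -0.10 at week 2, so the level at week 2 was within 0.2 of that in healthy lungs, and week 3 lay below week 2 (-2.79, adjusted p = 0.0107).

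Transcription factors changed in both directions. Of 40 nuclear receptors 2 rose (5%) and 4 fell (10%), and with 1 array left out 1 or 2 rose and 1 to 3 fell. Nr5a2 and the clock gene Nr1d2 rose, and the falls included the orphan receptors Nr4a1 and Nr4a2, which are quickly induced by a stimulus. Nr4a2 had 10.43, 10.02 and 10.16 at week 3, against 11.29, 11.41 and 11.43 in healthy lungs (log2 fold change of -1.18 ± 0.13, adjusted p = 0.00669) and was below week 2 as well (-0.95, adjusted p = 0.0476). Gadd45b and Sertad1, both also quick to respond to stress, fell with little spread between arrays, Gadd45b with 10.20, 10.11 and 9.98 at week 3, against 11.60, 11.52 and 11.82 in healthy lungs (log2 fold change of -1.55 ± 0.12, adjusted p = 0.00224) and Sertad1 with 11, 11.06 and 11.15 at week 3, against 11.99, 12.12 and 12.04 in healthy lungs. Sertad1 fell by 0.98 ± 0.10 on the log2 scale (adjusted p = 0.00524). The dissociation-induced transcripts given above were lower in the same arrays, and their part in these falls was not tested. Of 119 homeobox factors 1 rose (0.84%) and 3 fell (2.52%), against 2.38% and 2.63% of all genes. With 1 array left out, 1 or 2 of them rose and 0 to 2 fell. The rise was in Lhx6, a LIM homeobox factor, with 12.10, 12.13 and 11.96 at week 3, against 10.44, 11.03 and 11 in healthy lungs (log2 fold change of 1.24 ± 0.17, adjusted p = 0.0132). Lhx6 was higher than at week 2 (0.77, adjusted p = 0.0261). Of 23 ETS factors 1 rose (4.35%, against 2.38% of all genes) and none fell. This was Etv4, with 8.81, 9.32 and 8.91 at week 3, against 7.73, 8.02 and 7.74 in healthy lungs (log2 fold change of 1.18 ± 0.17, adjusted p = 0.0132). Etv4 lost its call without healthy replicate 1 or 3 (adjusted p up to 0.0529) and with the mean of its probe sets.

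None of 78 SOX, GATA, TBX and FOX factors rose and 6 fell (7.69%), with 8 higher and 17 lower at an unadjusted p below 0.05 in limma and 3 to 6 falls when 1 array was left out. Tbx4, a factor of lung mesenchyme, had 9.20, 8.59 and 8.89 at week 3, against 10.41, 10.32 and 10.09 in healthy lungs (log2 fold change of -1.38 ± 0.18, adjusted p = 0.0098), and Foxf2, also mesenchymal, had 7.92, 7.39 and 7.30 at week 3, against 9.10, 8.71 and 8.90 in healthy lungs. Foxf2 fell by 1.36 ± 0.19 on the log2 scale (adjusted p = 0.013). The other probe set of Foxf2 had a log2 fold change of -0.11 and that of Tbx4 one of -0.57, and neither passed. In the same arrays 7 of 18 fibroblast and 4 of 16 mural markers fell, and their part in these falls was not tested. Sox11 had 8.12, 8.38 and 8.47 at week 3, against 9.73, 9.73 and 9.55 in healthy lungs. Sox11 fell by 1.35 ± 0.13 on the log2 scale (adjusted p = 0.00387), but its call was lost when probe sets that may cross-hybridize were left out. Foxf1, which lung ECs are known to need, had 12.53, 12.58 and 12.58 at week 3, against 12.55, 12.39 and 12.57 in healthy lungs (log2 fold change of 0.06 ± 0.10, adjusted p = 0.798), and Foxo1, a factor of EC quiescence, had a log2 fold change of 0.30 (adjusted p = 0.218).

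Genes that glucocorticoids induce moved in both directions. Of 30 measured, 2 rose (6.67%) and 3 fell (10%). Klf15 had 7.44, 7.50 and 7.34 at week 3, against 9.32, 9.37 and 8.70 in healthy lungs (log2 fold change of -1.70 ± 0.19, adjusted p = 0.00617). Zbtb16 had 8.70, 8.62 and 8.79 at week 3, against 9.75, 10.04 and 10.14 in healthy lungs (log2 fold change of -1.27 ± 0.13, adjusted p = 0.00523). The call of Zbtb16 was lost when all 4 groups shared a fit. Rgcc rose as described, and Fkbp5 had 10.02, 9.80 and 9.95 at week 3, against 8.86, 9.25 and 8.64 in healthy lungs. Fkbp5 rose by 1.01 ± 0.17 on the log2 scale (adjusted p = 0.0244). The call of Fkbp5 held only without healthy replicate 2, and 1 of its 2 other probe sets had a log2 fold change of -0.09. The receptor gene Nr3c1 had a log2 fold change of -0.07 (adjusted p = 0.757). Markers of fibroblasts, mural cells and epithelium were lower in the same arrays, and their part in the falls of Klf15 and Zbtb16 was not tested.

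The circadian clock is a loop in which the activators Arntl, Clock and Npas2 drive their own repressors, among them Nr1d1 and Nr1d2, which bind the letters AGGTCA next to an A and T rich stretch and repress Arntl, Npas2 and Nfil3. Of 22 clock genes, 1 rose (4.55%) and 3 fell (13.6%), and with 1 array left out 0 or 1 rose and 1 or 2 fell. Nfil3 had 9.28, 9.03 and 9.31 at week 3, against 10.24, 10.15 and 10.26 in healthy lungs (log2 fold change of -1.01 ± 0.12, adjusted p = 0.00714), and its call held with any 1 array left out. Npas2 had 6.81, 7.90 and 7.07 at week 3, against 8.96, 8.70 and 8.48 in healthy lungs (log2 fold change of -1.45 ± 0.28, adjusted p = 0.037), Arntl had 8.80, 8.51 and 8.25 at week 3, against 9.31, 9.21 and 9.24 in healthy lungs (log2 fold change of -0.73 ± 0.15, adjusted p = 0.0459) and Nr1d2 had 10.74, 10.76 and 10.61 at week 3, against 9.55, 9.91 and 10.05 in healthy lungs (log2 fold change of 0.87 ± 0.15, adjusted p = 0.0261), but each of these 3 kept its call in only 1 of the 6 fits with an array left out (adjusted p up to 0.113, 0.131 and 0.0782). Nr1d1 spread widely within both groups, with 11.21, 11.18 and 10.30 at week 3, against 9.34, 9.78 and 10.46 in healthy lungs (log2 fold change of 1.04 ± 0.34, adjusted p = 0.146), and at week 1 it had a log2 fold change of 1.69. Clock, Per1, Per2, Cry1 and Dbp did not pass (log2 fold changes of -0.40, -0.41, -0.11, -0.17 and 0.60). The hour at which lungs were taken is not given in the sources used here, and these genes cycle over the day.

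Promoter stretches of Nr1d2, which rose, and Nfil3, which fell, are shown as examples of called clock genes that hold AGGTCA before the start, from RefSeq on GRCm38.p6. AGGTCA was searched on both strands in windows of 250 bases before and 50 bases after a start, and 16.3% of all 32851 windows hold it. The capitals mark these letters, in Nr1d2 (chr14:18239166-18239195, minus strand, 77 bases before the start) as they stand and in Nfil3 (chr13:52981040-52981063, minus strand, 12 bases before the start) on the opposite strand, where they read TGACCT.
Nr1d2: gattggaagaagAGGTCAggaccgctcgtt
Nfil3: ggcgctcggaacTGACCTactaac
Of the other clock genes searched, 1 of 2 windows of Arntl, 1 of 2 of Per1 and 1 of 3 of Clock held the letters, and the window of Npas2, that of Nr1d1, that of Cry1 and that of Dbp did not. Arntl, which holds them in 1 of its 2 windows, also fell and is not shown. Per1 and Clock, which hold them, were not called. An A and T rich stretch beside the letters was not searched for. A match of letters is a description and not a binding site.

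**Figure D4:**
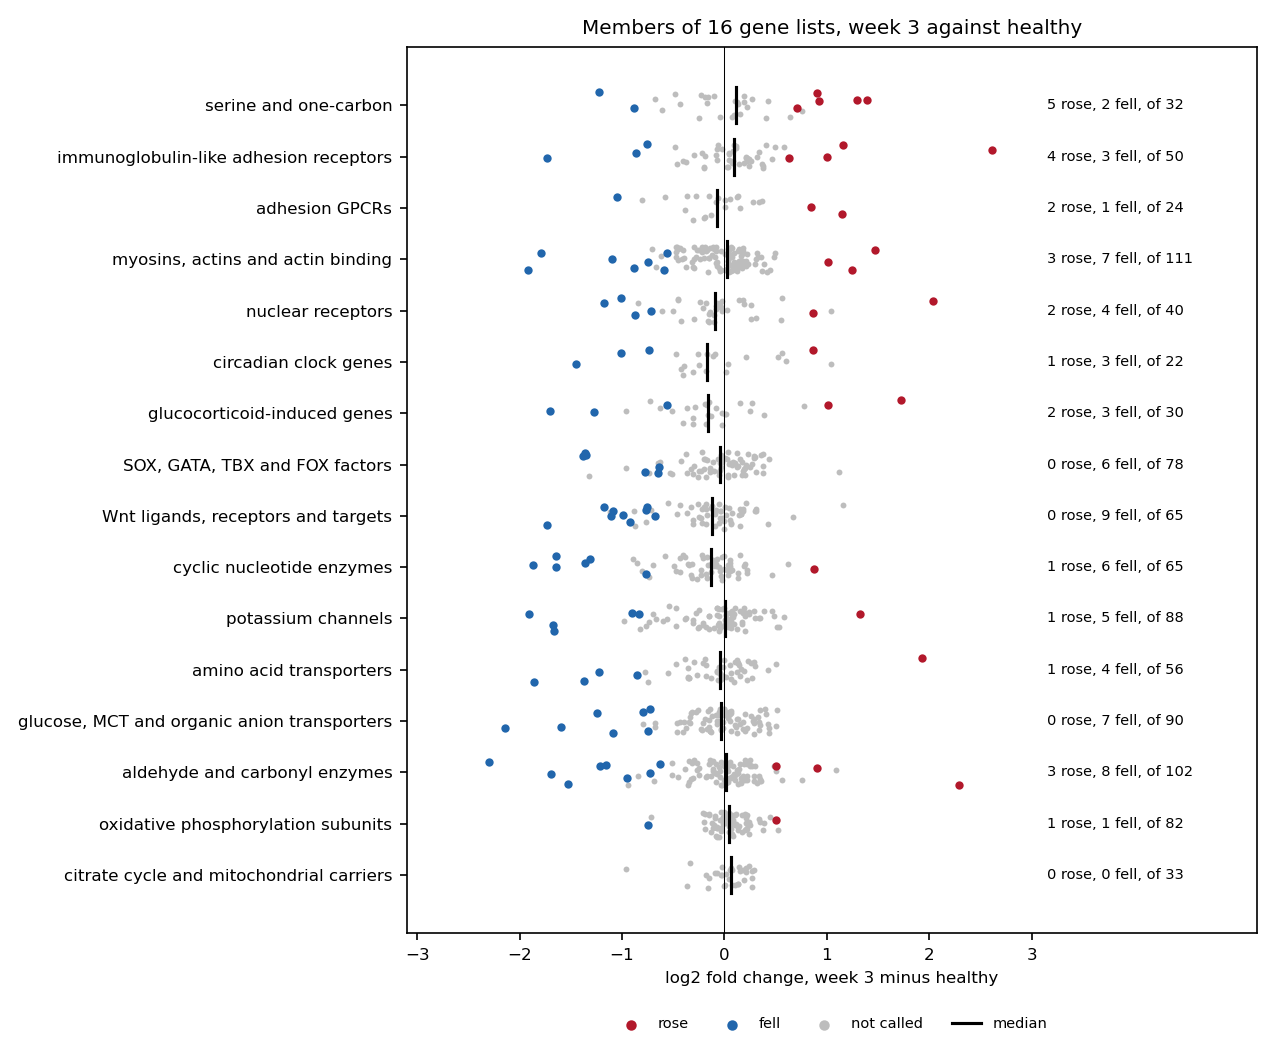
Log2 fold change (horizontal axis, week 3 minus healthy) of the members of 16 gene lists (vertical axis). Each point is 1 gene, red where it rose, blue where it fell and grey where it was not called, black bars are medians, and the lists of Wnt genes and of SOX, GATA, TBX and FOX factors have 9 and 6 falls and no rise.

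The largest falls were in receptors, peptidases and enzymes of detoxification. Gria1, a subunit of AMPA glutamate receptors, had 7.15, 6.76 and 6.69 at week 3, against 9.63, 9.89 and 9.49 in healthy lungs. Gria1 fell by 2.80 ± 0.17 on the log2 scale, or 6.99-fold (adjusted p = 0.000877). Lrat, which stores retinol as ester, was uneven in healthy lungs, with 8.45, 7.95 and 8.49 at week 3, against 10.82, 11.90 and 10.15 in healthy lungs (log2 fold change of -2.66 ± 0.41, adjusted p = 0.0187), and its call was lost without healthy replicate 1 or any 1 array of week 3 (adjusted p up to 0.059). The glutathione transferase Gsta3 had 8.23, 8.23 and 7.40 at week 3, against 10.93, 10.68 and 10.19 in healthy lungs (log2 fold change of -2.65 ± 0.28, adjusted p = 0.00511) and Bche, which encodes butyrylcholinesterase, had 6.13, 6.46 and 6.81 at week 3, against 8.77, 8.97 and 9.16 in healthy lungs. Bche fell by 2.50 ± 0.19 on the log2 scale (adjusted p = 0.0019). The membrane peptidases Dpep1 and Mme, which trim small peptides, fell together, Dpep1 with 8.40, 8.68 and 8.63 at week 3, against 11.18, 11.11 and 10.73 in healthy lungs (log2 fold change of -2.44 ± 0.15, adjusted p = 0.00103) and Mme with 8.64, 7.76 and 7.91 at week 3, against 10.63, 10.44 and 10.31 in healthy lungs. Mme fell by 2.36 ± 0.23 on the log2 scale (adjusted p = 0.00454). Itga8, the integrin subunit that marks mesenchymal cells of the lung, had 8.94, 8.87 and 8.76 at week 3, against 11.24, 11.04 and 11.15 in healthy lungs, with less than 0.3 between arrays of a group (4.89-fold lower, log2 fold change of -2.29 ± 0.11, adjusted p = 0.000471).

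Of the other large falls, Mamdc2, Abca8a, Fgfr4 and Eqtn had log2 fold changes of -2.46, -2.46, -2.19 and -2.29 (adjusted p = 0.008, 0.00169, 0.0074 and 0.00176). The call of Eqtn was lost when all 4 groups shared a fit. Cbr2, a carbonyl reductase of club cells, had 9.63, 9.04 and 9.24 at week 3, against 11.27, 11.99 and 11.53 in healthy lungs. Cbr2 fell by 2.29 ± 0.22 on the log2 scale (adjusted p = 0.00419). Sec14l3, a lipid-binding protein gene of airway epithelium, and Cyp2b10, a cytochrome P450, had log2 fold changes of -2.34 and -2.14 (adjusted p = 0.00176 and 0.000488). Several of these genes are known from fibroblasts or airway epithelium, whose marker lists were lower in the same arrays by the sums given above, and the part of those cells in the falls was not tested. Of all 479 fallen genes, 25 are among the 67 measured markers of fibroblasts, mural cells, alveolar cells and airway epithelium.

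**Figure D5:**
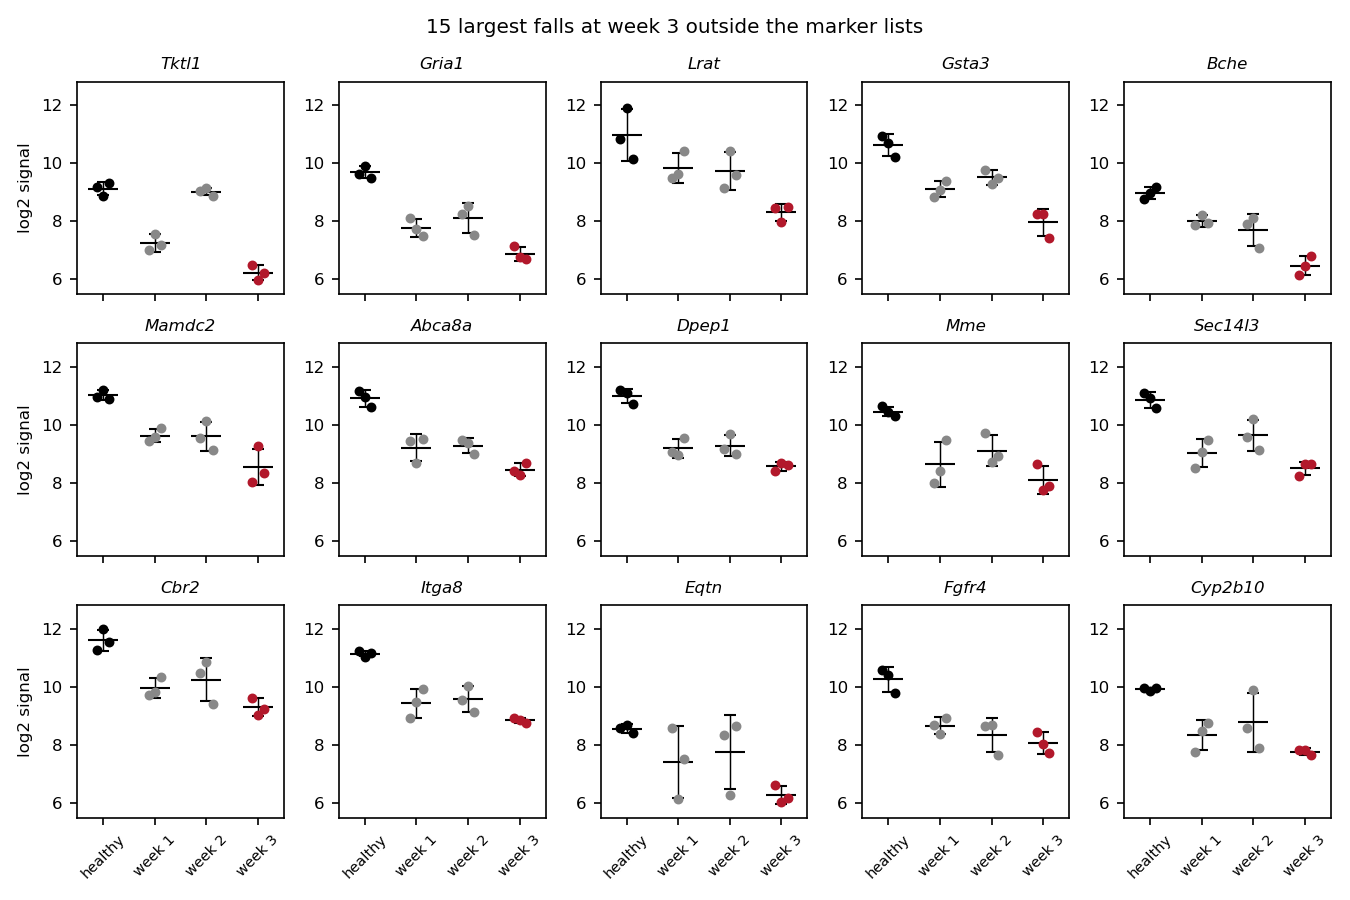
Log2 signal (vertical axis) of the 15 largest falls at week 3 outside the marker lists, in ECs of healthy lungs and of lungs at weeks 1, 2 and 3 (horizontal axis). Points are arrays and bars the mean ± SD (n = 3), and for 14 of the 15 genes, Tktl1 being the exception, the mean at week 2 lies at least 0.8 below that of healthy lungs.

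The same genes were lower at the earlier weeks, which was not tested. Against healthy lungs, the log2 fold changes of the 15 genes lay between -1.90 and -0.97 at week 1 and between -1.92 and -0.10 at week 2, and 2 of the 15, Tktl1 and Gsta3, were also lower at week 3 than at week 2. Gria1 had -1.90 at week 1 and -1.57 at week 2, Itga8 -1.71 at week 1 and -1.57 at week 2 and Fgfr4 -1.59 at week 1 and -1.92 at week 2. In the marker lists, the fibroblast median was -0.54 at week 1, -0.74 at week 2 and -0.45 at week 3, and that of alveolar type 2 cells -1.16, -1.07 and -0.95. Over all genes called at week 3, the median of the 255 rises outside the lists left aside was 0.22 at week 1, 0.24 at week 2 and 0.78 at week 3, and that of the 479 falls -0.60 at week 1, -0.45 at week 2 and -0.94 at week 3. These genes were chosen by their week 3 values, so the sizes at week 3 are a description.

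Wnt signaling genes were among the lists with falls and no rise. Wnt proteins signal through Frizzled receptors and are held back by secreted and intracellular antagonists. Of 65 measured, none rose and 9 fell (13.8%), with 4 to 7 falls when 1 array was left out, and the median was -0.12 (5 higher and 18 lower at an unadjusted p below 0.05 in limma). In the same arrays 7 of 18 fibroblast, 4 of 16 mural, 6 of 10 alveolar type 1 and 5 of 10 alveolar type 2 markers fell, with the sums given above, and their part in these falls was not tested. Tnfrsf19, a Wnt target and receptor of the TNF family, had 7.72, 7.61 and 7.68 at week 3, against 9.60, 9.35 and 9.26 in healthy lungs. Tnfrsf19 fell by 1.73 ± 0.12 on the log2 scale (adjusted p = 0.00143). The intracellular antagonist Nkd2 had 8.35, 8.56 and 8.52 at week 3, against 9.45, 9.72 and 9.57 in healthy lungs (log2 fold change of -1.10 ± 0.12, adjusted p = 0.00577), with log2 fold changes of 0.12 at week 1 and -0.04 at week 2, and was below week 2 (-1.06, adjusted p = 0.0203), but none of its 3 other probe sets passed (log2 fold changes of -0.81 to 0.08). The secreted Dkk3 had 9.32, 8.92 and 9.23 at week 3, against 10.15, 10.40 and 10.18 in healthy lungs (log2 fold change of -1.09 ± 0.14, adjusted p = 0.0104), and the receptor gene Fzd7 a log2 fold change of -1.17 (adjusted p = 0.0257, lost without any 1 healthy array or week 3 replicate 3). Fzd4, a receptor that ECs are known to use, and Fzd6 had log2 fold changes of -0.03 and -0.05, and Ctnnb1, which encodes beta-catenin, one of -0.02 (adjusted p = 0.916, 0.838 and 0.92). Axin2 and Lef1, which beta-catenin is known to induce, had -0.88 and 0.05 (adjusted p = 0.0664 and 0.922). Axin2 passed when all 4 groups shared a fit (adjusted p = 0.0123), with dim probe sets left out (0.0387) and with the mean of its probe sets (0.0245), but with no array left out in turn (0.0904 to 0.156).

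Falls outnumbered rises among the enzymes of cyclic nucleotide signaling. Nitric oxide from ECs acts on soluble guanylate cyclase, a pair of subunits that makes cyclic GMP and is best known from smooth muscle and pericytes. Of 65 enzymes, their targets and anchors, 1 rose (1.54%) and 6 fell (9.23%), with 4 to 7 falls when 1 array was left out. The mural markers, with a summed signal of 9720 to 11100 at week 3 and 14800 to 16400 in healthy lungs, were lower in the same arrays, and their part was not tested. The subunit gene Gucy1b1 had 7.63, 7.78 and 7.87 at week 3, against 9.32, 9.17 and 8.86 in healthy lungs (log2 fold change of -1.36 ± 0.15, adjusted p = 0.00566), and its partner Gucy1a1, named after its value was seen, had 10.19, 9.92 and 9.97 at week 3, against 11.49, 11.39 and 11.15 in healthy lungs. Gucy1a1 fell by 1.31 ± 0.13 on the log2 scale (adjusted p = 0.00487). Adcy8, a calcium-stimulated adenylate cyclase, had 7.21, 7.39 and 7.10 at week 3, against 9.11, 9.29 and 8.92 in healthy lungs (log2 fold change of -1.87 ± 0.14, adjusted p = 0.00169) and was below week 2 (-1.43, adjusted p = 0.0176). Prkg2, a cyclic GMP-dependent kinase, had 6.97, 7.79 and 7.52 at week 3, against 9.02, 9.53 and 8.66 in healthy lungs (log2 fold change of -1.64 ± 0.28, adjusted p = 0.0244), and its call was lost without healthy replicate 1 or 2 or week 3 replicate 1 or 3 (adjusted p up to 0.0758). Akap5, a kinase anchor that is also in the alveolar type 1 list, had a log2 fold change of -1.64 (adjusted p = 0.0225), and kept its call only without week 3 replicate 2. Adcy4, another cyclase, and Prkg1 had log2 fold changes of 0.00 and -0.41 (adjusted p = 0.998 and 0.222). The rise was in Pde10a, a phosphodiesterase named after its value was seen, with 9.01, 8.79 and 8.88 at week 3, against 8.11, 7.97 and 7.96 in healthy lungs (log2 fold change of 0.88 ± 0.11, adjusted p = 0.00948), and its 4 other probe sets did not pass.

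Receptors and adhesion genes that fell included some known from mesenchymal cells. S1pr3, a receptor of sphingosine 1-phosphate, had 7.86, 7.89 and 7.76 at week 3, against 9.56, 9.70 and 8.84 in healthy lungs (log2 fold change of -1.53 ± 0.22, adjusted p = 0.0148), with healthy replicate 3 below the other healthy arrays, and its call was lost without healthy replicate 1 or 2 or week 3 replicate 3 (adjusted p up to 0.0559). The receptor S1pr1, which ECs carry, is 1 of the 24 pan-endothelial markers that were not called. Hhip, which binds hedgehog proteins, had 8.04, 8.57 and 8.58 at week 3, against 9.88, 10.36 and 10.08 in healthy lungs. Hhip fell by 1.71 ± 0.19 on the log2 scale (adjusted p = 0.00653). Fgf7, a growth factor that lung mesenchyme makes for epithelium, had 7.05, 6.30 and 7.13 at week 3, against 9.15, 9.14 and 8.36 in healthy lungs (log2 fold change of -2.06 ± 0.29, adjusted p = 0.0134), and lost its call without healthy replicate 1 or 2 (adjusted p up to 0.059). The scavenger receptor gene Scara5 had 6.86, 7.69 and 7.45 at week 3, against 9.01, 9.29 and 9.0 in healthy lungs (log2 fold change of -1.77 ± 0.22, adjusted p = 0.00865), and was near the healthy level at week 1 (0.00 at week 1 and -1.47 at week 2). Sdc2, a heparan sulfate proteoglycan, had 8.36, 8.32 and 7.92 at week 3, against 9.84, 9.91 and 9.44 in healthy lungs. Sdc2 fell by 1.53 ± 0.18 on the log2 scale (adjusted p = 0.00714). Of its 3 other probe sets 2 fell, and their log2 fold changes lay between -1.74 and 0.20. Cdc42bpg, a kinase that Cdc42 binds, had 8.29, 8.33 and 8.44 at week 3, against 9.92, 9.97 and 9.74 in healthy lungs. Cdc42bpg fell by 1.52 ± 0.11 on the log2 scale (adjusted p = 0.00164). The summed signals of the fibroblast and mural lists were lower in the same week 3 arrays, and their part in these falls was not tested.

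Among ion channels and transporters, falls were in potassium channels and carriers of amino acids and organic anions. Of 88 potassium channel genes 1 rose (1.14%) and 5 fell (5.68%), with 3 to 5 falls when 1 array was left out. Kcna2, of the voltage-gated channels, had 6.89, 6.78 and 6.85 at week 3, against 8.69, 8.73 and 8.08 in healthy lungs (log2 fold change of -1.66 ± 0.18, adjusted p = 0.00604) and Kcnq5 had 6.46, 6.32 and 6.74 at week 3, against 8.02, 8.98 and 8.24 in healthy lungs. Kcnq5 fell by 1.90 ± 0.25 on the log2 scale (adjusted p = 0.0108). Abcc9, a subunit of ATP-sensitive channels that is also in the mural list, had a log2 fold change of -1.68 (adjusted p = 0.0157), and its call was lost without healthy replicate 1 or 2 or week 3 replicate 1 (adjusted p up to 0.0606). Kcna2 and Kcnq5 were already lower at earlier weeks, Kcna2 with -1.47 at week 1 and -1.02 at week 2 and Kcnq5 with -1.23 at week 1 and -0.89 at week 2. The rise among the channels, Kcnj2, which sets the resting potential, had 7.96, 8.62 and 7.82 at week 3, against 6.72, 6.67 and 7.03 in healthy lungs (log2 fold change of 1.32 ± 0.22, adjusted p = 0.0243) and kept its call only without week 3 replicate 2 or 3. Kcnj2 is itself in the lists left aside. Of 56 amino acid transporters 1 rose (1.79%) and 4 fell (7.14%). Slc38a5, a glutamine transporter, had 6.57, 7.35 and 7.03 at week 3, against 8.74, 9.15 and 8.64 in healthy lungs (log2 fold change of -1.86 ± 0.22, adjusted p = 0.00796), while Slc3a2, Slc7a5 and Slc38a2, which import amino acids into dividing cells, had log2 fold changes of 0.09, 0.42 and -0.35 and did not pass (adjusted p = 0.69, 0.169 and 0.18). Slc5a12, a lactate transporter, fell, with 8.68, 7.98 and 7.86 at week 3, against 9.74, 9.81 and 9.77 in healthy lungs. Slc5a12 fell by 1.59 ± 0.21 on the log2 scale (adjusted p = 0.011). It had log2 fold changes of -0.12 at week 1 and 0.06 at week 2, and its call was lost without healthy replicate 2 (adjusted p = 0.0526).

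Enzymes that oxidize or reduce aldehydes and carbonyls were a large list, with 3 rises (2.94%) and 8 falls (7.84%) among 102 genes, and 1 or 2 rises and 3 to 6 falls when 1 array was left out. Aldh1a1, a retinal dehydrogenase, had 10.29, 10.15 and 9.97 at week 3, against 12.04, 11.86 and 11.59 in healthy lungs (log2 fold change of -1.70 ± 0.15, adjusted p = 0.00305), and its close relative Aldh1a7, whose transcript is similar in sequence and may share signal with it, had 7.01, 7.33 and 7.03 at week 3, against 8.49, 9.0 and 8.46 in healthy lungs. Aldh1a7 fell by 1.53 ± 0.18 on the log2 scale (adjusted p = 0.00714). Cbr2 fell as described, and Akr1b8 rose. Markers of fibroblasts and epithelium were lower in the same arrays, and their part in the falls of this list was not tested. In the caveolae and transcytosis list 1 of 22 genes rose and none fell (2 higher and 3 lower at an unadjusted p below 0.05 in limma). Cavin3, a coat protein of caveolae, had 10.86, 10.53 and 10.74 at week 3, against 9.90, 9.89 and 9.90 in healthy lungs (log2 fold change of 0.81 ± 0.12, adjusted p = 0.0148), and its call was lost without healthy replicate 1 or 2 or week 3 replicate 3 (adjusted p up to 0.059), and Cavin1 and Cavin2 had log2 fold changes of 0.10 and -0.06 (adjusted p = 0.61 and 0.82).

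Some families had no call or calls below the background share, and others had calls that were mostly lost with 1 array left out. None of 21 RGS proteins, which shorten G protein signals, passed in limma (2 higher and 3 lower at an unadjusted p below 0.05), and of 99 calcium, TRP, sodium and mechanosensitive channels none rose and 1 fell (1.01%, with 7 higher and 10 lower at an unadjusted p below 0.05). Of 103 glycosyl- and sulfotransferases, which build the ligands of selectins and other lectins, 2 rose (1.94%, 1 of them in the lists left aside) and none fell (11 higher and 5 lower at an unadjusted p below 0.05 in limma). Of 32 genes of cholesterol synthesis and handling, 2 rose (6.25%, 1 of them in the lists left aside) and 4 fell (12.5%), but with 1 array left out none rose and at most 1 fell. Of 39 genes of the BCL2 family and caspases, 3 rose (7.69%, 1 of them in the lists left aside) and 2 fell (5.13%), and with 1 array left out none rose and at most 1 fell. Of 29 genes of the unfolded protein response, 1 rose and 1 fell, and neither call held with any 1 array left out.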

How the data were processed

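Expression was measured in 12 samples of sorted lung ECs, with 1 Affymetrix GeneChip mouse genome array each. The authors normalized the raw array files by robust multiarray average in Chipster and deposited 1 log2 signal per probe set and array, which was used as deposited. This method adjusts the background and gives all arrays the same distribution of signals, so that differences are relative to the rest of the array, and it compresses differences of low signals. With 3 arrays in each group, their number sets the precision. p-values measure the spread between these samples only.

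Of 45101 probe sets, 64 array controls were set aside and 45037 tested. By the platform annotation 34945 had 1 gene symbol, 932 several and 9160 none. A gene was read from its 1-symbol probe set with the highest mean in the 12 arrays (18193 genes), of which 18032 were matched to RefSeq. Week 3 was compared with healthy lungs, and with week 2, by limma (version 3.58.1 in R 4.3.3, a fit of the 6 arrays compared, empirical Bayes) with Benjamini-Hochberg adjustment over all probe sets. The script was tested on simulated data with known changes. Replicate numbers are shared between groups, but same-numbered arrays did not deviate together (given with the alternatives), and no pairing was used. Named genes were the 15 largest rises and the 15 largest falls among called genes whose arrays did not overlap between groups, outside the lists left aside and the marker lists, up to 4 called members of each gene list with the largest changes, uncalled members that a list needs, and genes of the sort. The members, lists and tests were chosen with earlier results of these data known. Figures were drawn with matplotlib 3.10.9 in Python 3.11.15.

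The alternatives were a fit of all 4 groups, each array left out, the replicate number as a block, renewed quantile normalization, centring on array medians, leaving out dim or possibly cross-hybridizing probe sets, the mean of a gene's probe sets, a trended and robust variance, and array weights. Scanner files were not used here.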

Additional observations from a re-analysis of the deposited data

Results flagged for a closer look

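For 14 of the 30 largest rises and falls, the effect at week 3 differed from that at week 2 by the test of the difference itself (limma, week 3 against week 2, adjusted p below 0.05, both effects being against the same healthy arrays). Over all genes, 1.35% were higher and 0.748% lower than at week 2. The 30 genes were chosen as extremes of the same week 3 arrays, so the choice bears on this count. The difference, week 3 minus week 2 on the log2 scale, was 2.30 for AA467197, 2.07 for Akr1b8, 1.95 for Csf2rb, 1.87 for Ildr2, 1.86 for Car13, 1.74 for Trp53i11, 1.66 for Fignl1, 1.57 for Rgcc, 1.51 for Ntrk2, 1.37 for Clca3a1, 1.28 for Nr5a2 and 1.27 for Rassf2. It was -1.56 for Gsta3 and -2.79 for Tktl1. With week 2 replicate 1 or week 2 replicate 3 left out, or with the replicate number as a block, 0 genes passed this test in either direction. Groups of 3 arrays were not searched for single arrays that stand apart.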

How the results depend on the processing

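The number of genes that rose against healthy lungs (433) became 665 when all 4 groups shared a fit and 717 with the mean of a gene's probe sets, and 154 to 233 with 1 array left out. The number that fell (479) was 176 to 270 with 1 array left out. Under the other alternatives except the replicate block both counts stayed within 1.5 times these values. Against week 2, 246 genes were higher and 136 lower. When all 4 groups shared a fit, 241 were lower. Without 1 of the arrays, 0 to 94 genes were higher and 0 to 43 lower. The cause of these shifts beyond the smaller number of arrays was not tested. With the replicate number as a block, 161 genes rose and 217 fell against healthy lungs, and 0 were higher and 0 lower than at week 2. Same-numbered arrays of week 3 and healthy lungs had deviations from their group means that correlated by -0.05, -0.03 and -0.08, and those of weeks 3 and 2 by 0.01, 0.02 and -0.02. These values gave no sign that the numbers pair the arrays, but they cannot exclude a pairing that touches only some genes. In no healthy pair did an array correlate best with its own number. Of the genes followed by name, 67 lost their call with the block, 58 to 80 with 1 array left out, 19 when all 4 groups shared a fit, 13 with the mean of probe sets, 9 without probe sets that may cross-hybridize, 6 with the trended variance and 4 with array weights, and none that was called changed direction. The genes followed include some that were not called. Of the 160 genes named by size or as called members of a list, 78 were called in 4 or fewer of the 6 fits without 1 array. Calls were gained by Axin2 when all 4 groups shared a fit, without dim probe sets and with the mean of probe sets, and by Adgre5 with the trended variance. Some uncalled genes close to 0 changed sign. Atf4 had 0.0194 with the mean of probe sets and Adgrl4 -0.00348 with array weights. With 1 array left out, the log2 fold change was -0.245 to 0.0479 for Psph, -0.0465 to 0.0648 for Adgrl4, -0.0684 to 0.0167 for Fzd4, -0.166 to 0.188 for Lef1, -0.127 to 0.0213 for Cavin2, -0.0634 to 0.200 for Gja5, -0.0676 to 0.0705 for Taldo1, -0.0479 to 0.0755 for Rac1 and -0.0994 to 0.106 for Adcy4. Signals near the lower end of the arrays, where the lowest was 5.27, leave little room for a further fall. Tns4, Kcna2, Kcnq5, Kcnj2, Ptger3, Ptgfr, Chl1 and Ms4a2 were left out with the dim probe sets, so that alternative did not test them.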

Other observations

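Among the 479 fallen genes, 7 had a log2 fold change of -1 or less at week 1 and above -0.3 at week 2, a pattern chosen after the values were seen. They are Atcayos, Icam5, Muc13, Tex29, Tktl1, Tns4 and Trim72, and none of the 433 risen genes had the mirrored pattern (0 with at least 1 at week 1 and below 0.3 at week 2). Icam5, an adhesion molecule known from neurons, had a difference from healthy lungs of -1.27 at week 1, 0.07 at week 2 and -1.35 at week 3. Trim72, known from the repair of muscle membranes, had -1.51, 0.16 and -2.09 in the same order of weeks. Tex29 had -1.15 at week 1, -0.04 at week 2 and -1.39 at week 3, and its signals were 6.90, 7.07 and 6.89 at week 3, against 8.45, 8.40 and 8.20 in healthy lungs. The week 3 call against healthy lungs was lost for Trim72 without any 1 healthy array (adjusted p up to 0.0638), and Atcayos and Muc13 kept it in only 1 of 6 fits with an array left out (adjusted p up to 0.106 and 0.0847). All 7 were lower at week 3 than at week 2 (limma, adjusted p below 0.05), a test on which the choice of the genes bears.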
